A study of Mus musculus with 6 samples.

Results

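The natriuretic peptide system was described through 8 genes of the 32285 in the count table: the proteases Corin and Pcsk6, the receptors Npr1, Npr2 and Npr3, the peptide-degrading enzyme Mme, the cGMP-dependent kinase Prkg1 and the cGMP phosphodiesterase Pde5a. All 8 were found by their Ensembl identifiers and all 8 were among the 15955 genes that passed the filter on low counts. They were chosen by role in the pathway, with the difference between high-load and control kidneys in Corin already known, so their differences between these groups are given as a description and carry no test.

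Whole kidneys of mice that carry a mutated TrnE, which encodes the mitochondrial tRNA for glutamate, were compared by RNA-seq at high and low mutation load. High-load kidneys 1, 2 and 3 had labelled loads of 75%, 75% and 80%. Low-load control kidneys 1, 2 and 3 had labelled loads of 10%, 5% and 15%, so both groups carried the mutation and no mutation-free kidney was included. Each library came from one animal with its own code, at a stated age of 100 weeks and, by the series description, from a female. The labels state neither the strain nor the base change, and the loads are those of the labels.

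Natriuretic peptides are hormones of the heart and vessels that make the kidney excrete salt and water. Corin, a serine protease anchored in the cell membrane, cuts pro-atrial natriuretic peptide into its active form, and the convertase PCSK6 cuts corin into an active protease. Atrial and brain natriuretic peptides then bind NPR1 and C-type natriuretic peptide binds NPR2. Both receptors carry a guanylyl cyclase that makes cGMP, which activates the kinase PRKG1 until phosphodiesterases such as PDE5A break it down. NPR3 has no cyclase and removes the peptides from the circulation, and neprilysin, the product of Mme, degrades them at the cell surface.

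Total counts ranged from 17449270 to 18865997 per library. Values are CPM, counts scaled to a common library total with TMM factors, and fold changes are high load over low-load control. Kidney markers were present in every library, including Slc34a1 of the proximal tubule at 889 to 4856 CPM and Umod of the thick ascending limb at 2933 to 5422 CPM. One library went against the stated sex. Control 2 had 0.182 CPM of Xist, the RNA of the inactive X chromosome in females, where the other 5 libraries had 662 to 948 CPM. It had 67.4 CPM of the Y-linked Ddx3y and 77.5 CPM of the Y-linked Eif2s3y, and both had 0 counts in the other 5. Results are therefore given with and without control 2, which leaves 2 controls.

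The promoters of the 3 members whose high-load and control levels did not overlap are shown first, since the results turn on these genes. Each run is 300 bases of the gene's own strand from RefSeq (GRCm38.p6, the assembly of mm10), 250 before and 50 after the annotated start, with capitals marking the GC box GGGCGG on either strand. RefSeq held promoters for 8 of the 8 members, 11 promoters in all.
Corin, chr5:72504491-72504790, minus strand: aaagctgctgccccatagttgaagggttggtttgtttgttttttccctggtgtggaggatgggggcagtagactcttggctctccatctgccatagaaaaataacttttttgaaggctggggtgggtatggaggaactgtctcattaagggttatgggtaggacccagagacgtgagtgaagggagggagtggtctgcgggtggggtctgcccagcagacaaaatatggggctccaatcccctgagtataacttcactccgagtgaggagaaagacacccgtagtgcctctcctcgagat
Npr1, chr3:90465817-90466116, minus strand: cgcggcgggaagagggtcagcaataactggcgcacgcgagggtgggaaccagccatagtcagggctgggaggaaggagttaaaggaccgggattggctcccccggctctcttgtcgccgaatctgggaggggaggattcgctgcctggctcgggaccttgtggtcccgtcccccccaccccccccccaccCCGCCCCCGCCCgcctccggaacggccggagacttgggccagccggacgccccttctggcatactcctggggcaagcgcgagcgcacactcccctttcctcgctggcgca
Pcsk6, chr7:65861886-65862185, plus strand: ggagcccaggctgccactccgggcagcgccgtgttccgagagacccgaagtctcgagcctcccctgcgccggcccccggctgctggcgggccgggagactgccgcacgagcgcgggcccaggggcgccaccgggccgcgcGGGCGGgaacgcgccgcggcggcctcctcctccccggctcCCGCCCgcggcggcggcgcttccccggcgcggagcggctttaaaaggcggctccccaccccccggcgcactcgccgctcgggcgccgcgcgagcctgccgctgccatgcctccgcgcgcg

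These windows differed in base composition. The Corin window had 51.7% G and C and 5 CG dinucleotides, close to the median of 52.7% and 7 over 32851 mouse promoters. The Npr1 window had 69.7% and 26, and the Pcsk6 window had 81.7% and 52, with a G and C share above that of 99.4% of promoters. The GC box occurred at 2 places in Npr1 and 2 in Pcsk6 and was not found in the Corin window, against 35.7% of all promoters with at least 1. Searched on both strands, GATA words (A or T, then GATA, then A or G), TATAAA, the estrogen-related receptor element TNAAGGTCA and the stress-response element TGATGNAAT were found in none of these 3 windows. They occurred in 29.8%, 13.6%, 1.3% and 1.0% of all promoters, in that order. A match or its lack in so short a window says nothing about binding.

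Corin (ENSMUSG00000005220, chromosome 5, 72300025 to 72504473, minus strand, mm10) was the member that stood farthest apart. It had 0.425, 0.760 and 0.668 CPM in high-load kidneys 1, 2 and 3, against 3.99, 4.07 and 5.67 CPM in control kidneys 1, 2 and 3. Every high-load kidney was below every control, and the 2 groups were separated by a wide gap. The counts behind these levels were 9, 14 and 12 in the high-load kidneys and 72, 67 and 104 in the controls, so high-load levels rest on few counts. Mean levels were 0.618 ± 0.173 CPM in high-load kidneys and 4.58 ± 0.944 CPM in controls (SD, n = 3 each). The log2 fold change was -2.88 with SE 0.31, a high-load level of 0.135 times that of the controls. Without control 2 it was -2.96 with SE 0.35, and with any 1 library left out it lay between -3.06 and -2.67. Exons of Corin share 147 bases with the antisense gene Gm20647, which had 1 count over the 6 libraries.

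Pcsk6 (ENSMUSG00000030513, chromosome 7, 65861734 to 66050386, plus strand), the convertase that activates corin, lay on the same side. It had 28.3, 31.1 and 20.8 CPM in high-load kidneys 1, 2 and 3, against 50.5, 68.9 and 53.4 CPM in controls 1, 2 and 3. Again no high-load kidney reached the lowest control. Mean levels were 26.7 ± 5.32 CPM in high-load kidneys and 57.6 ± 9.87 CPM in controls (SD, n = 3 each), which gave -1.11 (SE 0.18) as log2 fold change. The highest control was control 2, and without it the control mean was 52.0 CPM and the log2 fold change -0.96 with SE 0.18.

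**Figure D1:**
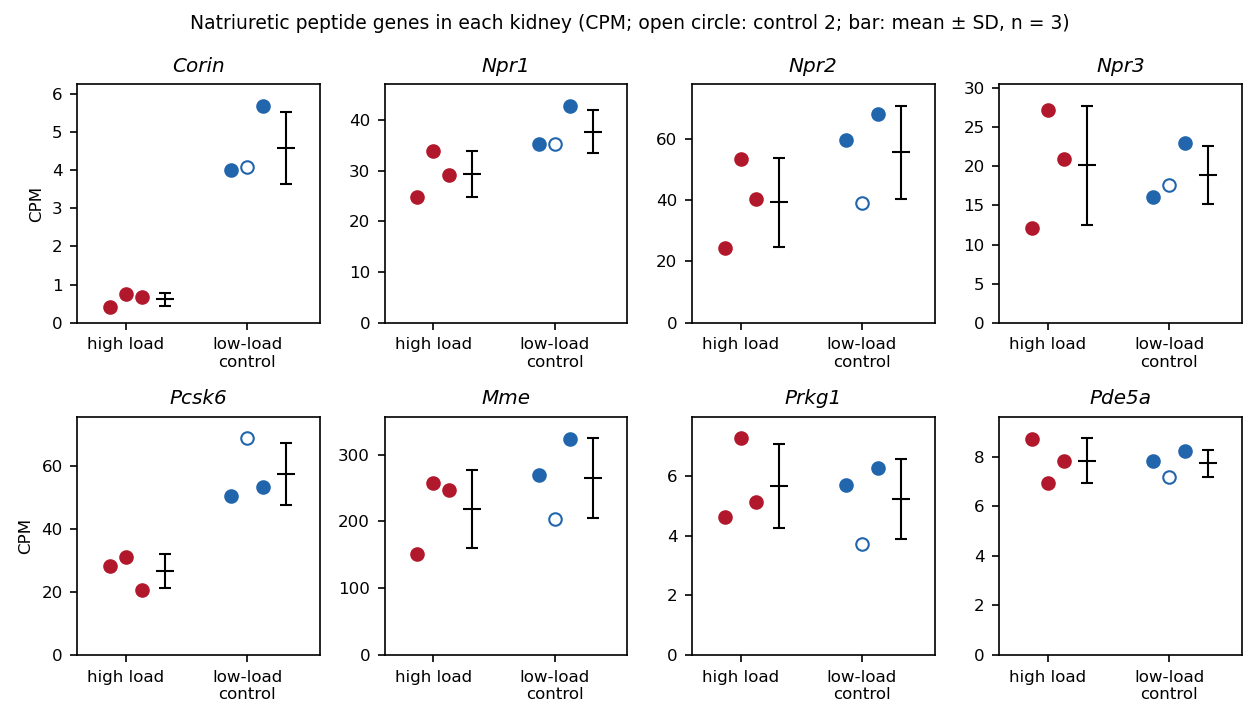
Levels of the 8 genes in each kidney, in CPM on axes that start at 0, with high-load kidneys in red and low-load controls in blue, replicates 1 to 3 from left to right in each group; bars give mean ± SD (n = 3) and the open circle is control 2. Corin, Pcsk6 and Npr1 show no overlap between the groups, and Npr3, Prkg1 and Pde5a overlap with and without control 2.

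Of the receptors that make cGMP, Npr1 (chromosome 3, 90450591 to 90465866, minus strand), the receptor of atrial and brain natriuretic peptides, differed little in size. It had 24.8, 33.9 and 29.2 CPM in high-load kidneys 1, 2 and 3, against 35.3, 35.2 and 42.7 CPM in controls 1, 2 and 3. The groups did not overlap, but high-load 2 lay only just below the lowest control. The log2 fold change was -0.37 with SE 0.14, and -0.42 with SE 0.16 without control 2.

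Npr2 (chromosome 4, 43631935 to 43651244, plus strand), the receptor of C-type natriuretic peptide, varied more within each group. It had 24.3, 53.3 and 40.2 CPM in high-load kidneys 1, 2 and 3, against 59.5, 38.9 and 68.2 CPM in controls 1, 2 and 3. The groups overlapped through control 2, the lowest control, and did not overlap without it. The log2 fold change was -0.50 with SE 0.32 over all libraries and -0.70 with SE 0.31 without control 2, where the control mean was 63.8 CPM. Its exons share 266 bases with Gm12473, which had 96 counts over the 6 libraries.

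Npr3 (chromosome 15, 11839896 to 11907287, minus strand), the clearance receptor, had nearly equal group means. It had 12.1, 27.2 and 20.9 CPM in high-load kidneys 1, 2 and 3, against 16.1, 17.6 and 23.0 CPM in controls 1, 2 and 3. High-load kidneys held both the lowest and the highest value. The log2 fold change was 0.08 with SE 0.30 and 0.03 with SE 0.36 without control 2, and with 1 library left out it ranged from -0.20 to 0.35.

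Mme (chromosome 3, 63241537 to 63386030, plus strand), which encodes neprilysin of the proximal tubule brush border and of podocytes, was the most abundant member. It had 152, 258 and 247 CPM in high-load kidneys 1, 2 and 3, against 269, 204 and 323 CPM in controls 1, 2 and 3. The low values were those of high-load 1 and control 2, and the groups overlapped through control 2 alone. The log2 fold change was -0.28 with SE 0.25, and -0.44 with SE 0.26 without control 2.

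The 2 members downstream of cGMP showed little difference between group means. Prkg1 (chromosome 19, 30564489 to 31765033, minus strand), the kinase of smooth muscle and mesangial cells, averaged 5.68 ± 1.41 CPM in high-load kidneys and 5.23 ± 1.35 CPM in controls. Its log2 fold change was 0.12 with SE 0.28, and -0.08 with SE 0.26 without control 2. Pde5a (chromosome 3, 122728947 to 122859374, plus strand), the phosphodiesterase that sildenafil inhibits, averaged 7.85 ± 0.897 CPM in high-load kidneys and 7.74 ± 0.533 CPM in controls (SD, n = 3 each). Its log2 fold change was 0.02 with SE 0.16, and -0.03 with SE 0.18 without control 2. The groups overlapped in both genes, and the SEs do not show that the levels were equal.

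With a threshold of 0.05 on the adjusted p, the quasi-likelihood test of edgeR called no member, and over all 15955 genes it called 0 (0%) lower and 3 (0.0188%) higher. At an unadjusted p under 0.05 in the same test 3 members were lower (Corin, Npr1 and Pcsk6), beside 10.2% of all genes tested, and 0 were higher, beside 14.0%. Without control 2 edgeR called 0 members, with 3 lower and 0 higher at an unadjusted p under 0.05, beside 6.25% and 9.84% of all genes. Corin and Pcsk6 were called lower by edgeR without high-load 2, beside 1.62% of all genes. DESeq2 called the same 2 members lower and 0 higher, beside 2.62% and 4.51% of its genes, and at an unadjusted p under 0.05 it had 3 lower and 0 higher, beside 7.71% and 9.53%. limma-voom called 0 members, with 3 lower at an unadjusted p under 0.05, beside 10.7%. A log2 fold change of -1 or less was seen in 2 members, Corin and Pcsk6, and in 2.14% of all genes, and one of 1 or more in 0 members and 6.25% of all genes. The groups of 3 members did not overlap and were lower at high load, beside 15.8% of all genes, and without control 2 there were 5 such members beside 20.9%, and 0 that were higher beside 21.6%. Median log2 fold changes were -0.32 over the 8 members and 0.01 over all genes tested. Nothing is read from these counts, because the genes were chosen with this comparison in view.

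**Figure D2:**
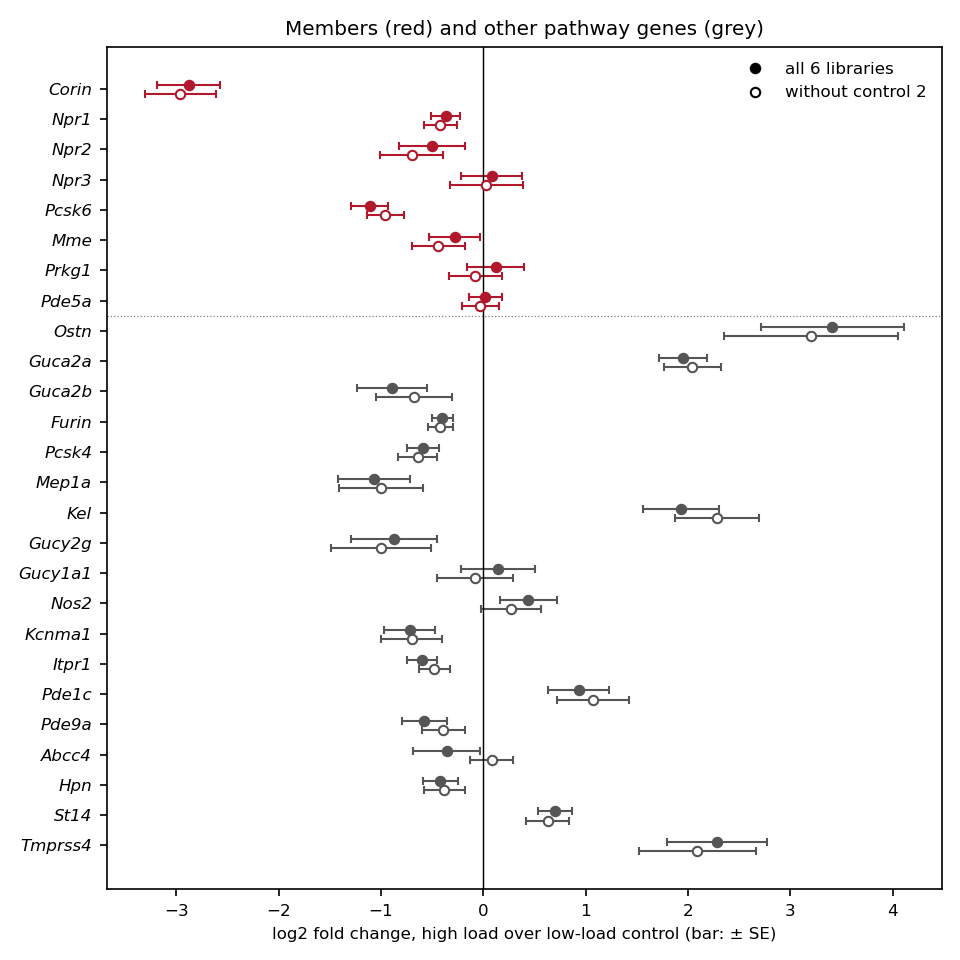
Log2 fold changes, high load over low-load control, with bars of ± SE, for the 8 members in red and 18 other pathway genes in grey; filled points use all 6 libraries and open points leave out control 2. Corin lies at -2.88 and Pcsk6 at -1.11, and leaving out control 2 moves 4 of the genes shown to the other side of 0, the members Prkg1 and Pde5a and the pathway genes Abcc4 and Gucy1a1.

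Levels were compared between genes as CPM per kilobase of exon, counting every annotated exon base once. In high-load kidneys Mme was the highest at 13.2 to 22.3 per kilobase, followed by Npr2 at 5.21 to 11.4, Npr1 at 5.18 to 7.08 and Pcsk6 at 4.0 to 5.98. Npr2 and Npr1, and Npr1 and Pcsk6, had ranges that overlapped and did not differ beyond their spread. Npr3 came next at 1.29 to 2.90, then Pde5a at 0.707 to 0.889, Prkg1 at 0.426 to 0.670 and, below every other member, Corin at 0.0788 to 0.141.

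The order in the controls was the same at the top, with Mme at 17.7 to 28.0 per kilobase and Npr2 at 8.33 to 14.6. Pcsk6 came next in the controls at 9.74 to 13.3, within the spread of Npr2, and above Npr1 at 7.36 to 8.93. Npr3 was at 1.71 to 2.45. Corin stood at 0.740 to 1.05, not separated from Pde5a at 0.729 to 0.837, and Prkg1 was the lowest at 0.341 to 0.577. In the controls Corin was thus a gene of about the level of Pde5a, and in high-load kidneys it was the lowest of the 8.

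**Figure D3:**
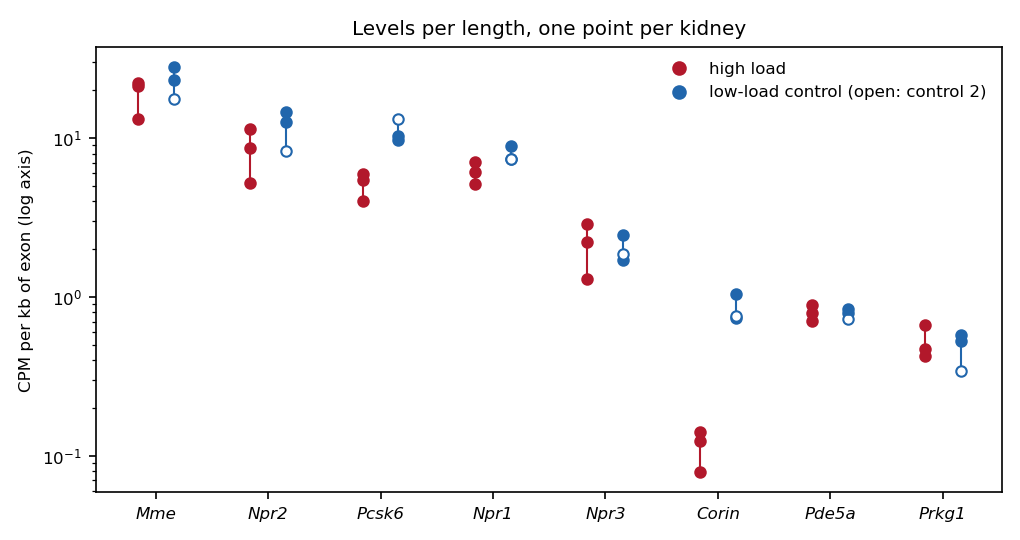
CPM per kilobase of exon on a log axis, 1 point per kidney, ordered by the mean in controls, with high-load kidneys in red left of low-load controls in blue (open circle, control 2) and lines over each range. Corin at 0.0788 to 0.141 in high-load kidneys lies below all other points.

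Within groups most members ranked the kidneys in a similar order. How common that order was over all genes was not determined, so it is not read as a trait of the members. High-load 2 had the highest level of 7 of the 8 members among high-load kidneys, all but Pde5a, and high-load 1 the lowest level of 6. Control 3 had the highest level of 7 of the 8 among controls, all but Pcsk6. Summed markers of the proximal tubule, podocytes and endothelium were also lowest in high-load 1 and highest in high-load 2 among high-load kidneys. The sums of the thick ascending limb, intercalated cells and the adipocyte list had the same order. Those of leukocytes, fibroblasts, mesangial and smooth muscle cells, the distal and connecting tubule, principal cells, heart muscle and the adrenal gland did not. Marker lists for kidney cell types varied between the same libraries, and in bulk tissue fewer cells of a type and less RNA per cell cannot be told apart. The 10 markers of proximal tubule segments 1 and 2 summed to 2519, 8984 and 6863 CPM in high-load 1, 2 and 3, against 10515 to 10899 CPM in controls, and all 10 had a fold change below 1. The 10 markers of segment 3 summed to 1497 to 4816 CPM in high-load kidneys and 3959 to 7540 CPM in controls, or 5645 to 7540 CPM without control 2. Podocyte markers summed to 366, 807 and 805 CPM in high-load 1, 2 and 3, against 675 to 848 CPM in controls.

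The part of these shifts in the members' levels was not tested. In high-load 2, where the proximal tubule sum was -0.26 on a log2 scale against the control mean and the podocyte sum 0.09, Corin was at -2.59, Pcsk6 at -0.89 and Mme at -0.04 on the same scale. In high-load 1, where the sums were -2.09 and -1.05, Corin was at -3.43, Pcsk6 at -1.03 and Mme at -0.80. Endothelial markers summed to 485 to 834 CPM in high-load kidneys and 722 to 919 CPM in controls, and markers of mesangial cells, pericytes and smooth muscle to 291 to 421 CPM in high-load kidneys and 268 to 359 CPM in controls. Thick ascending limb markers summed to 4869 to 5903 CPM in high-load kidneys and 6549 to 9212 CPM in controls, without overlap. Fibroblast markers summed to 692 to 1088 CPM in high-load kidneys and 372 to 659 CPM in controls, and leukocyte markers to 714 to 1417 CPM in high-load kidneys and 421 to 541 CPM in controls, both higher without overlap. Heart muscle is the main source of Corin in the body. Its 8 markers summed to 5.34 to 6.89 CPM in high-load kidneys and 3.83 to 4.52 CPM in controls, higher without overlap. The 4 that passed the filter had a fold change above 1, and Actc1 and Sln had 0 counts in at least 1 library. A part of heart tissue in the level of Corin was not tested.

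**Figure D4:**
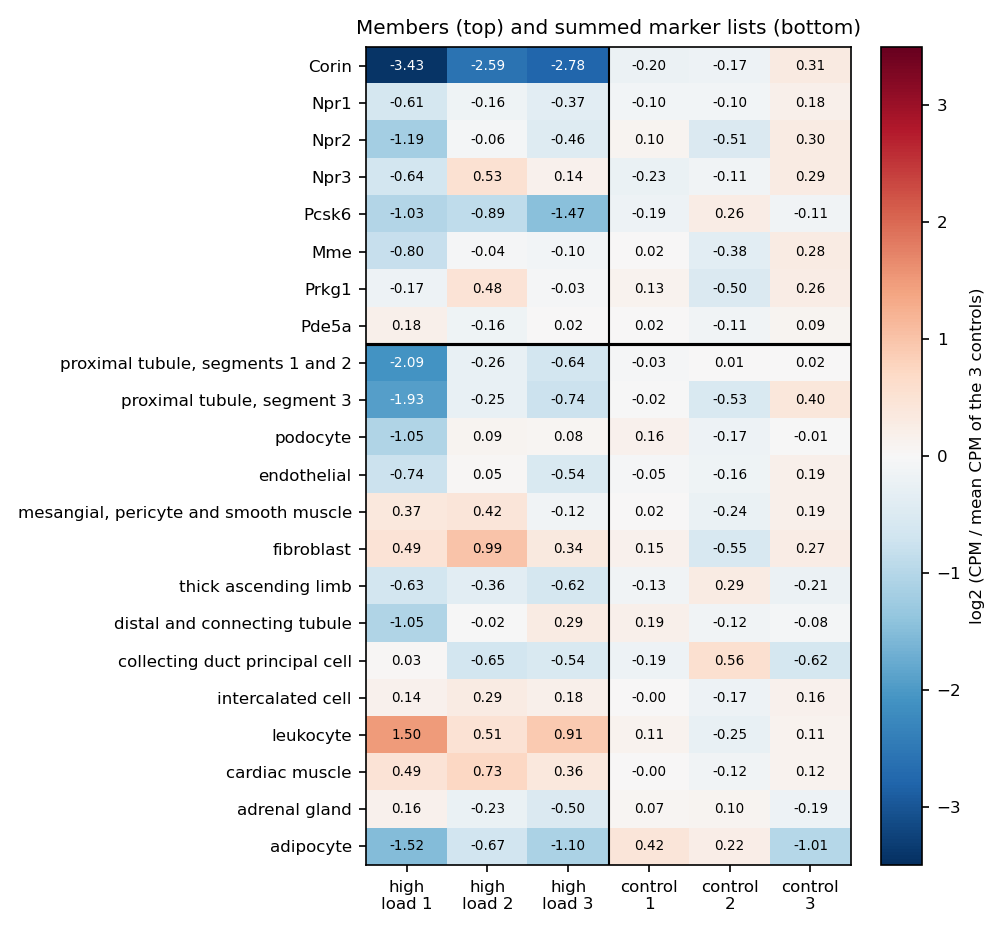
Log2 ratio of each kidney's CPM to the mean CPM of the 3 controls, for the 8 members above the line and for summed cell type markers below it, with high-load kidneys in the left 3 columns and controls in the right 3. Corin is between -3.43 and -2.59 in high-load kidneys, while the proximal tubule sums range from -2.09 to -0.25; the adipocyte sum is dominated by Pck1, which tubules also express.

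The wider pathway was followed in 74 further genes in 7 lists written by role, of which 48 passed the filter on low counts. None of the 48 was called by edgeR at an adjusted p under 0.05, with 7 higher and 9 lower at an unadjusted p under 0.05, beside 14.0% and 10.2% of all genes. DESeq2 called 5 higher (Ostn, Guca2a, Kel, St14 and Tmprss4) and 4 lower (Furin, Pcsk4, Mep1a and Itpr1), beside 4.51% and 2.62% of its genes. limma-voom called 0, with 8 higher and 9 lower at an unadjusted p under 0.05. The share of all genes was 10.7% for lower and was not counted for higher. Without high-load 2 edgeR called 3 higher, Guca2a, St14 and Tmprss4, beside 3.34% of all genes. Each adjusted p given for a pathway gene is that of edgeR with all 6 libraries unless DESeq2 is named. The groups did not overlap in 10 that were higher and 10 that were lower, beside 17.1% and 15.8% of all genes. Without control 2 there were 10 higher and 15 lower, beside 21.6% and 20.9% of all genes. The median log2 fold change of the 48 was 0.02, or -0.08 without control 2, beside 0.01 over all genes.

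The genes of the natriuretic peptides themselves had counts near 0 in most libraries. Nppa, for the atrial peptide that corin activates, had 0, 2 and 3 counts in high-load kidneys and 2, 2 and 1 in controls, and Nppb and Nppc also failed the filter. Ostn, for osteocrin, a ligand of NPR3, had 19, 18 and 24 counts in high-load kidneys, against 0, 1 and 4 counts in controls (adjusted p 0.0967 in edgeR's test). The 2 guanylin peptides, ligands of another guanylyl cyclase, lay on opposite sides. The gene of that cyclase, Gucy2c, had 6 counts over the 6 libraries. Guca2a, guanylin, averaged 4.43 ± 0.636 CPM in high-load kidneys and 1.14 ± 0.119 CPM in controls (log2 fold change 1.95, SE 0.23, adjusted p 0.0735). Guca2b, uroguanylin, averaged 245 ± 98.1 CPM in high-load kidneys and 452 ± 107 CPM in controls (log2 fold change -0.89, SE 0.34, adjusted p 0.186). In both the groups did not overlap. Neither was past the threshold in edgeR with all 6 libraries, while Guca2a was past it in DESeq2 (adjusted p 7.44e-07), in edgeR with no filter beyond 1 count (0.0352) and in edgeR without high-load 2 (0.0276).

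All 5 tested convertases related to Pcsk6 had a log2 fold change below 0, beside 7826 of the 15955 genes tested. Their median was -0.40. edgeR called 0 of the 5, with 3 lower at an unadjusted p under 0.05, beside 10.2% of all genes. limma-voom called 0. DESeq2 called 2 lower, Furin (adjusted p 0.00694) and Pcsk4 (0.03), beside 2.62% of its genes. Furin, which processes many precursors including that of C-type natriuretic peptide, averaged 150 ± 12.9 CPM in high-load kidneys and 198 ± 7.62 CPM in controls (log2 fold change -0.40, SE 0.10, adjusted p 0.115). Pcsk4 averaged 10.7 ± 1.83 CPM in high-load kidneys and 16.2 ± 1.70 CPM in controls (adjusted p 0.123). Pcsk6 at -1.11 lay below the lowest of these 5, which was at -0.59.

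Among 7 tested peptide-degrading enzymes the median was -0.15. Mep1a, the brush border metalloprotease meprin, averaged 719 ± 297 CPM in high-load kidneys and 1513 ± 261 CPM in controls (log2 fold change -1.07, SE 0.35, adjusted p 0.146). Kel, a relative of neprilysin found on red blood cells, averaged 0.960 ± 0.0859 CPM in high-load kidneys and 0.250 ± 0.103 CPM in controls (adjusted p 0.0946). Mmel1, the nearest relative of neprilysin, had 0 counts in all 6 libraries, which allows up to 0.182 CPM in a library (counting error only).

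The relatives of corin among membrane-anchored serine proteases lay on both sides of 0. Of 16 listed, 6 passed the filter, 4 of them with a fold change above 1, beside 8129 of the 15955 genes tested. Hepsin, Hpn, averaged 283 ± 53.8 CPM in high-load kidneys and 378 ± 21 CPM in controls (log2 fold change -0.42, SE 0.17, adjusted p 0.192). Matriptase, St14, averaged 124 ± 28.5 CPM in high-load kidneys and 76.6 ± 5.85 CPM in controls (0.70, SE 0.17, adjusted p 0.113). Tmprss4 averaged 5.40 ± 2.64 CPM in high-load kidneys and 1.11 ± 0.439 CPM in controls (2.28, SE 0.49, adjusted p 0.0981), with no overlap of groups.

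Other sources and users of cGMP had small median differences. The 6 tested guanylyl cyclases and nitric oxide synthases had a median log2 fold change of 0.06. Among them Gucy1a1, a subunit of the nitric oxide receptor, averaged 42.0 ± 18.7 CPM in high-load kidneys and 38.1 ± 11.0 CPM in controls (adjusted p 0.839). Gucy2g averaged 0.496 ± 0.242 CPM in high-load kidneys and 0.903 ± 0.192 CPM in controls (adjusted p 0.257). The inducible synthase Nos2 averaged 2.09 ± 0.366 CPM in high-load kidneys and 1.54 ± 0.339 CPM in controls (adjusted p 0.370).

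The 9 tested effectors and substrates of the cGMP-dependent kinases had a median of 0.03. Itpr1, the calcium release channel of the endoplasmic reticulum, averaged 190 ± 23.1 CPM in high-load kidneys and 288 ± 40.7 CPM in controls (log2 fold change -0.60, SE 0.15, adjusted p 0.114). Kcnma1, the large-conductance potassium channel, averaged 1.89 ± 0.414 CPM in high-load kidneys and 3.12 ± 0.313 CPM in controls (adjusted p 0.159). The 12 phosphodiesterases and exporters had a median of 0.08. Pde1c averaged 4.85 ± 1.64 CPM in high-load kidneys and 2.55 ± 0.422 CPM in controls (adjusted p 0.147), and Pde9a, which is specific for cGMP, 22.8 ± 5.30 CPM in high-load kidneys and 34.0 ± 7.12 CPM in controls (adjusted p 0.178). The exporter Abcc4 averaged 93.0 ± 12.5 CPM in high-load kidneys and 119 ± 56.7 CPM in controls, with a log2 fold change of -0.36 that became 0.08 without control 2.

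The genes whose log2 CPM followed Corin most closely over the 6 libraries, among 13711 compared, were Epha1 (Pearson r 0.994), Ash1l (0.991), Phospho2 (0.990), Myo5b (0.987), Alg11 (0.987) and Pcdhgb4 (0.985). These values are a description, since the 2 groups lie apart and set most of each r, and 463 genes (3.38%) had an r of at least 0.9. None of the 6 was called by edgeR, and their differences were much smaller than that of Corin. Epha1, a receptor tyrosine kinase, averaged 24.0 ± 0.813 CPM in high-load kidneys and 28.5 ± 0.305 CPM in controls (log2 fold change -0.25, SE 0.08). Myo5b, a motor of apical membrane traffic, averaged 81.1 ± 8.94 CPM in high-load kidneys and 128 ± 10.4 CPM in controls (-0.66, SE 0.12). Measured as deviations from the group means, r with Corin was 0.89 for Epha1, 0.95 for Myo5b and 0.55 to 0.73 for the other 4. Among the other members this r ranged from -0.41 for Pde5a to 0.97 for Npr1 and Npr3. Such values therefore do not set the 6 genes apart, and their share over all genes was not determined.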

How the data were processed

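Raw counts for Ensembl genes, 1 column per kidney, are what the authors deposited. Per the labels' protocols, total RNA was isolated with TRIzol and sequenced as paired reads from TruSeq libraries. The genome build mm10 and the tools featureCounts 2.0.1, HISAT2 2.2.1, fastp 0.23.2, SAMtools 1.11 and edgeR are credited to the submitters' processing notes. Annotation and strand setting: not given in the sources used here. Therefore reads of overlapping antisense genes cannot be told apart. Exons of 6 of the 8 members and 7 of the 18 named pathway genes overlap those of another gene in GENCODE M21, which gave symbols for 32235 of 32285 identifiers.

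Groups came from the sample titles. edgeR 4.0.16 in R 4.3.3 was run on all genes: filterByExpr (minimum count 10), TMM factors, the quasi-likelihood fit with robust estimation and group as the only term, and two-sided tests. The threshold was 0.05 after Benjamini-Hochberg adjustment, which took in all 15955 tested genes. SE was derived from the F statistic. An exact permutation test of 3 against 3 cannot go below p = 0.1, so none was used on single genes. The fits were run on simulated counts with known fold changes, drawn independently for each gene. Shifts shared by many genes of a library were not simulated, so that run cannot decide between the calls of the tools here. DESeq2 1.42.0 and limma-voom (limma 3.58.1) were alternatives. Replicates are separate animals by their codes, and pairs within a group differed by 21.4 to 100.02 times counting noise.

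Members and lists were chosen with earlier results of these data known. The naming rule took all 8 members, the 2 genes of each pathway list with the smallest p, its most abundant gene, any gene past the threshold, and the 6 genes nearest to Corin by r of log2 CPM (prior count 2, mean of at least 1 CPM). Nppa, Nppb, Nppc, Mmel1, Gucy2c and the sex, fat and tubule genes used to check libraries were named after their values were seen. Leaving out control 2 from means and overlaps was added after seeing the data.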

Additional observations from a re-analysis of the deposited data

How the results depend on the processing

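The count of genes called over the whole table was 3, and became 50 with no filter beyond 1 count, 1698 with DESeq2, 0 with limma-voom, 1 with the replicate number as a block, 10 with mutation load as a number, and 0 to 807 with 1 library left out. The count of members called was 0, and became 1 with no filter beyond 1 count, 2 with DESeq2 and 0 to 2 with 1 library left out. For the other pathway genes the count of 0 became 1 with no filter, 9 with DESeq2 and 0 to 3 with 1 library left out. The highest of each range was without high-load 2. The causes were not tested. With the replicate block the counts of called members and pathway genes stayed at 0. Same-numbered libraries deviated from their group means with correlations of 0.124, -0.182 and 0.049, so the numbers were not taken as pairs. With the longest transcript as length, Corin stood at rank 7 and Pde5a at rank 6 in controls. Over 16 alternative settings each member's log2 fold change moved by less than the spread between replicates, though the ranges of Npr3 (-0.20 to 0.35), Prkg1 (-0.10 to 0.26) and Pde5a (-0.06 to 0.15) cross 0. With library totals alone the median log2 fold change of all genes was 0.126, against 0.007 with TMM. Of 285 values of 18 named pathway genes, 269 kept their direction and side of the threshold and 13 passed it. The 3 that changed sign all left out 1 library: Gucy1a1 ranged from -0.26 (without high-load 2) to 0.40 and was -0.08 without control 2, and Abcc4 ranged from -0.63 to 0.08 (without control 2). Depth limits Corin, Ostn, Kel and Gucy2g, which had under 25 counts in each high-load kidney.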

Other observations

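Some fat tissue markers were uneven among the high-load kidneys. Cfd, adipsin, had 93.7, 23.0 and 0 CPM in high-load 1, 2 and 3, against 0.111, 0.0608 and 0.490 CPM in controls 1, 2 and 3. Adipoq, adiponectin, had 11.2, 3.58 and 0.111 CPM in high-load kidneys, against 0.0555, 0 and 0.545 CPM in controls. The whole list of 8 adipocyte markers summed to 1259, 2267 and 1680 CPM in high-load 1, 2 and 3. In controls 1, 2 and 3 it summed to 4825, 4220 and 1797 CPM. That sum is dominated by Pck1, which tubules also express. Of the 3 tested genes of the list, 1 had a fold change above 1 and 2 below 1. Corin was at 0.668 CPM in high-load 3, the kidney with 0 counts of Cfd, and at 0.425 and 0.760 CPM in high-load 1 and 2. These levels rest on 9, 14 and 12 counts in high-load 1, 2 and 3. A link between fat tissue and the level of Corin was not tested.

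Control 2 also stood apart in the proximal tubule carrier Slc7a13, at 118 CPM against 0.142 to 1.31 CPM in the other 5 libraries. Its Corin level of 4.07 CPM lay between those of controls 1 and 3.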
